A study of Mus musculus with 2 samples.

Results

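Genes that build and control the mitotic spindle and the kinetochore were examined in ATDC5 cells, a mouse chondrogenic cell line, after exposure to Nell-1, a secreted glycoprotein that promotes bone and cartilage formation. The list named 43 genes, and 42 of them had a probe set annotated with exactly 1 gene symbol, out of 18193 genes measured in this way. Ccnb1, which encodes cyclin B1, had none and was not analysed here. For every gene the brightest of these probe sets, by the mean over both arrays, was taken, so the brightness of the probe sets, but not the difference between the arrays, entered the choice. The list itself was drawn up with earlier results of these arrays known.

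The groups were CHX+Nell-1 and CHX+PBS, with 1 array each. In both groups serum-starved ATDC5 cells received cycloheximide (CHX), which blocks protein synthesis, at 10 µg/ml for 30 min. In the CHX+Nell-1 group this was followed by 100 ng/ml of recombinant human Nell-1 for 30 min, and in the CHX+PBS group by PBS for the same time. The stated purpose was to find genes that respond to Nell-1 without new protein being made. Because neither group was replicated, the variation between cultures is unknown, no p-value can be given, and every ratio compares 1 RNA sample with 1 other.

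Mitosis separates the copied chromosomes. Cyclin-dependent kinase 1 with its cyclins drives entry, condensin compacts the chromosomes, kinetochores attach them to spindle microtubules, and the spindle checkpoint holds back the anaphase-promoting complex until all are attached. Transcripts of these genes are typically low in resting cells and accumulate in the G2 and M phases, when they are made from promoters repressed in quiescence by the DREAM complex through a cell cycle homology region, the CHR, often with CCAAT boxes bound by NF-Y. In bulk RNA, a larger share of cells in G2 and M and more RNA per cell cannot be told apart.

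The promoter windows of these genes held 2 short motifs more often than the windows of all genes did. RefSeq windows on build GRCm38.p6, from 250 bases before to 50 bases after a gene's start, were held for 35 of the 43 genes. The CHR core TTTGAA, searched on both strands, lay in the windows of 24 of the 35 (68.6%), against 20.2% of 27025 genes with a window. CCAAT, also on both strands, lay in 25 of the 35 (71.4%), against 41.1% of all genes, and both motifs together in 21 (60.0%), against 8.97%. The related CHR form TTTAAA, which reads the same on both strands, was in 10 (28.6%), against 14.9%. Each motif was counted on its own, so matches may share bases. Within 50 bases on either side of the start, a span chosen after the positions were seen, TTTGAA was present in 22 of the 35 windows and in 4.92% of all. In lists filled by function, TTTGAA lay in 38 of 86 windows of further mitotic genes (44.2%) and in 6 of 36 windows of G1/S genes (16.7%). CCAAT lay in 52 of the 86 (60.5%) and in 21 of the 36 (58.3%).

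The 4 windows below belong to the genes with the largest differences between the arrays among those holding both motifs, and they show how the 2 motifs are placed around the start. Capitals mark TTTGAA or its reverse complement TTCAAA, and CCAAT or its reverse complement ATTGG. Spc25 lies at chr2:69206164-69206463 on the minus strand, Smc2 at chr4:52438971-52439270, Kif11 at chr19:37376132-37376431 and Ttk at chr9:83834439-83834738, the last 3 on the plus strand.
Spc25: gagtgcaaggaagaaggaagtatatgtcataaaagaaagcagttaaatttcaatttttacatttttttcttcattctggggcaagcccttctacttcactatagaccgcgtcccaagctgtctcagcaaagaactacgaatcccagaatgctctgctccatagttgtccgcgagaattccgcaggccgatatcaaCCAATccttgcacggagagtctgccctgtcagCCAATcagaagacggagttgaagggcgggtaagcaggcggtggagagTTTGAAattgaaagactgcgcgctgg
Smc2: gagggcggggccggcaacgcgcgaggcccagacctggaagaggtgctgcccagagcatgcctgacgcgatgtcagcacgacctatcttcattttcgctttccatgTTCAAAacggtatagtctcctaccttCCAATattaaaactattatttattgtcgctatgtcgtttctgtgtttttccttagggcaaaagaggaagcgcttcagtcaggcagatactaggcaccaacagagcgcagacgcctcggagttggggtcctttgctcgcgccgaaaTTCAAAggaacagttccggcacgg
Kif11: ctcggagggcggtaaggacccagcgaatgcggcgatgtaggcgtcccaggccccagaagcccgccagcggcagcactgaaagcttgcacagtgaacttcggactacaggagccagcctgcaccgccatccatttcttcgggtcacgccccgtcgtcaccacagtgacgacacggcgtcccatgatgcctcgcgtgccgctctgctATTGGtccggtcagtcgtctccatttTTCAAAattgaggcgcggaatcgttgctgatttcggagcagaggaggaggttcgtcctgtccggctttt
Ttk: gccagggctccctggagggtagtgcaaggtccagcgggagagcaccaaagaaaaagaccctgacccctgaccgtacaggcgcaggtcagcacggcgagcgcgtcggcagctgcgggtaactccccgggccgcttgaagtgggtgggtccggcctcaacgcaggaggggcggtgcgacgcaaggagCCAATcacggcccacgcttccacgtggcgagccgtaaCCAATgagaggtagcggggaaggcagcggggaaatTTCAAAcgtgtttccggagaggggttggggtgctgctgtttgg
In Spc25 the CHR core began 25 bases downstream of the start, with CCAAT 23 and 55 bases upstream. In Smc2 the CHR core lay 27 bases downstream and again 145 bases upstream, in Kif11 19 bases upstream, and in Ttk 8 bases downstream. A match to these letters is a description of the window and does not show that a factor was bound there.

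As a group the mitotic genes were slightly higher after Nell-1. Of the 42, 36 had a log2 ratio of CHX+Nell-1 over CHX+PBS above 0, against 45.8% of the 11600 genes whose mean signal was above the median of all probe sets. The median log2 ratio was 0.28 over the 42 genes and -0.03 over those 11600. At least 1.5-fold higher, the filter stated by the submitters, were 5 of 42, against 4.56% of the 11600, and none was at least 1.5-fold lower, against 7.53%. At a smaller step, 17 were at least 25% higher, against 14.6%, and none was lower by that factor, against 19.1%. All 42 were above the median signal, and their signals spanned 106 to 11651 with Nell-1 and 106 to 10896 with PBS. The differences were therefore mostly below the 1.5-fold filter, mostly in one direction, and spread over the list.

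**Figure D1:**
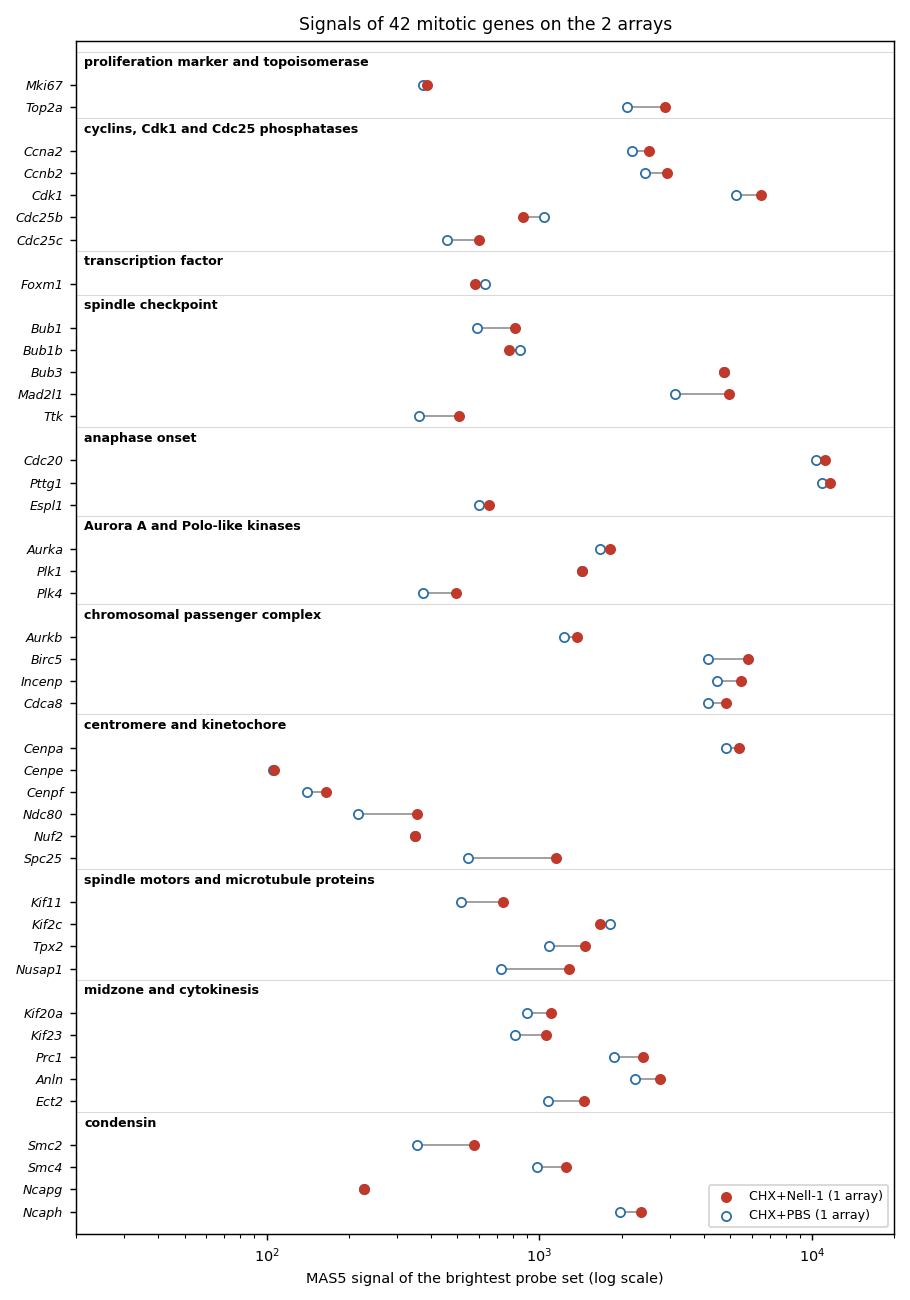
MAS5 signal of each of the 42 mitotic genes (horizontal axis, log scale) on the CHX+Nell-1 array (filled red) and the CHX+PBS array (open blue), grouped by role, with 1 array per group and no error bars. The filled point lies to the right in 36 genes, the widest gap is that of Spc25 (1151 and 548), and the points coincide for genes such as Plk1 (1432 and 1431).

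Signal strength did not separate the genes that were higher. In the class with mean signals below 500, the 9 mitotic genes had a median log2 ratio of 0.24, and the 4888 genes above the median signal in that class had -0.08. The 10 mitotic genes between 500 and 1000 had 0.34, against -0.03 for all genes of that class, and the 8 between 1000 and 2000 had 0.25, against -0.0024. In the 15 brightest, above 2000, the median was 0.27 and 14 were above 0, while all 2518 genes of that class had a median of -0.01 with 48.7% above 0. As a yardstick, a robust SD of the ratios was taken from all probe sets in 10 bins of signal, which holds any real differences along with noise. Of the 42, 25 were higher by at least 1 robust SD at their signal, against 15.2% of the 11600, and none was lower by as much, against 18.3%.

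**Figure D2:**
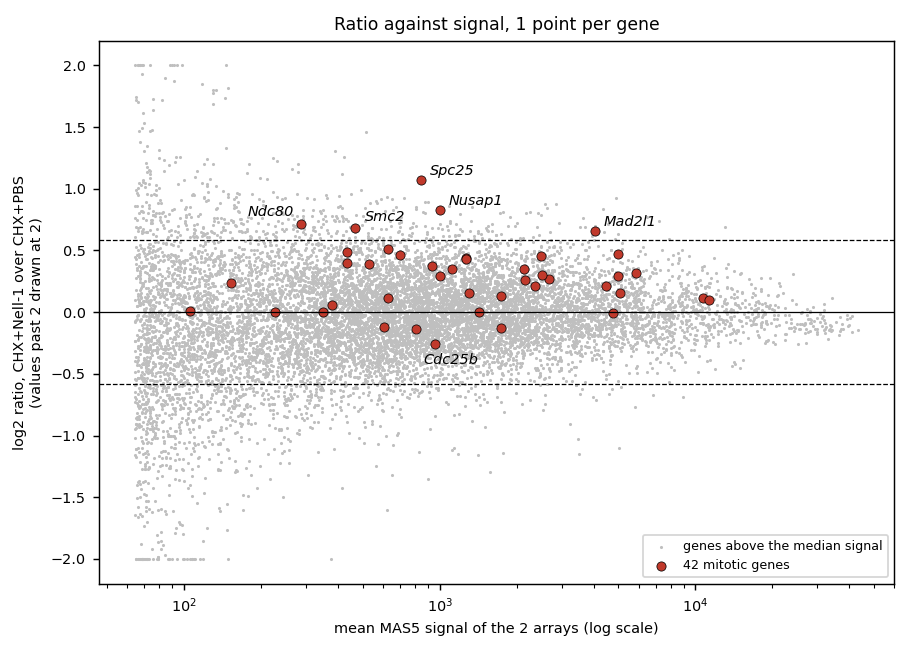
Log2 ratio of CHX+Nell-1 over CHX+PBS (vertical axis) against the mean MAS5 signal of both arrays (horizontal axis, log scale), with 1 point per gene. Grey points are the 11600 genes above the median signal, red points the 42 mitotic genes, and dashed lines mark 1.5-fold. The red points lie mostly between 0 and the upper dashed line across the range of signal, and the 5 above it are Spc25, Nusap1, Ndc80, Smc2 and Mad2l1.

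Kinetochore genes held the largest difference and some of the smallest. Spc25, a subunit of the NDC80 complex that binds microtubules, had a signal of 1151 with Nell-1 and 548 with PBS, 2.10-fold higher (log2 ratio 1.07), and its dimmer probe set gave 158 and 58.1 (1.44). Ndc80, which gives the complex its name, measured 357 with Nell-1 and 217 with PBS, 1.64-fold higher. Nuf2, the partner of Ndc80, was level on its only probe set, with 351 with Nell-1 and 350 with PBS. The 3 listed subunits of 1 complex thus gave log2 ratios of 1.07 (Spc25), 0.72 (Ndc80) and 0.0022 (Nuf2). The robust SD at their signals was 0.28 for Spc25 and 0.33 for Ndc80 and Nuf2. Whether Spc25 and Ndc80 differ from each other was not tested. The fourth subunit, Spc24, measured 1716 with Nell-1 and 1536 with PBS (0.16). Cenpa, the histone H3 variant of centromeres, was at 5368 with Nell-1 and 4824 with PBS (0.15), and Cenpf, a large kinetochore protein, at 165 and 140 (0.24). The kinetochore motor Cenpe was at 106 with Nell-1 and 106 with PBS (0.0071), where the robust SD was 0.62.

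The spindle checkpoint genes split between higher and level. Mad2l1, which inhibits Cdc20 at unattached kinetochores, measured 4960 with Nell-1 and 3149 with PBS, 1.58-fold higher, on its only probe set and at a signal where the robust SD was 0.21. The kinase gene Ttk (507 with Nell-1, 362 with PBS) was 1.40-fold higher and the kinase gene Bub1 (814 with Nell-1, 591 with PBS) 1.38-fold higher. Below 0 lay Bub1b, encoding BubR1, at 773 with Nell-1 and 848 with PBS, and its next probe set opposed it, with 838 with Nell-1 and 594 with PBS (0.50). Bub3, the binding partner of Bub1 and BubR1, was level on its brightest probe set (4747 with Nell-1, 4763 with PBS) and lower on the other above the median signal (505 with Nell-1, 674 with PBS, log2 ratio -0.42). The median over these 5 genes was 0.46.

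Spindle motors and microtubule proteins included 1 gene past 1.5-fold. Nusap1, which bundles spindle microtubules, measured 1287 with Nell-1 and 725 with PBS, 1.78-fold higher, with its other probe set below the median signal (33.9 and 31.6). Kif11, the kinesin-5 motor that pushes spindle poles apart, was 1.43-fold higher (736 with Nell-1, 516 with PBS), but its 3 probe sets disagreed, with log2 ratios of 0.51, 0.11 and -0.80 in order of brightness. Tpx2, which activates Aurora A on the spindle, was 1.36-fold higher (1466 with Nell-1, 1080 with PBS) and disagreed likewise, with 0.44, 0.17, -0.41 and -0.93. The microtubule-depolymerising kinesin Kif2c was at 1661 with Nell-1 and 1813 with PBS (-0.13). Its next 2 probe sets gave 0.04 and 0.48. In Kif11 and Tpx2 the brighter probe sets were thus higher and the dimmest above the median signal lower.

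Condensin subunits were higher in 3 of 4 genes. Smc2, an ATPase subunit shared by both condensins, measured 573 with Nell-1 and 357 with PBS, 1.61-fold higher, and 90.2 and 66.1 on its next probe set. Its partner Smc4 was at 1255 with Nell-1 and 982 with PBS, 1.28-fold higher, with 667 and 345 on the second brightest (0.95) and 266 and 258 on the third (0.04). Ncaph, the kleisin of condensin I, was 1.20-fold higher (2364 with Nell-1, 1969 with PBS). Ncapg, another condensin I subunit, was level on its brightest probe set, with 228 on each array, while its dimmer one gave 108 with Nell-1 and 50.9 with PBS (1.09). For Ncapg the call therefore turns on the probe set.

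All 5 midzone and cytokinesis genes were higher on their brightest probe sets. Their log2 ratios there spanned a narrow range from 0.30 to 0.43, with none at 1.5-fold. The largest was Ect2, the exchange factor that activates RhoA at the cleavage furrow, with 1452 with Nell-1 and 1075 with PBS. Kif23, a motor of the centralspindlin complex, had 1054 with Nell-1 and 812 with PBS, and 203 and 108 on its next probe set (0.92). Prc1, which bundles antiparallel microtubules, was at 2386 with Nell-1 and 1872 with PBS, and both of its probe sets gave 0.35. Anln, encoding the actin-binding scaffold anillin, had 2768 with Nell-1 and 2247 with PBS. Kif20a, a midzone kinesin, had 1101 with Nell-1 and 898 with PBS.

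The 4 genes of the chromosomal passenger complex were also all higher, none by 1.5-fold. Birc5, encoding survivin, measured 5788 with Nell-1 and 4164 with PBS (log2 ratio 0.48). Incenp, the scaffold of the complex, was at 5487 with Nell-1 and 4490 with PBS (0.29), and of its further 3 probe sets above the median signal 2 were above 0. Cdca8, encoding borealin, had 4813 with Nell-1 and 4149 with PBS (0.21), with all 3 of its probe sets above 0. Aurkb, the kinase of the complex, had 1371 with Nell-1 and 1230 with PBS (0.16), and 0.19 on the other probe set.

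Cyclin and Cdk1 genes were higher by small steps on their brightest probe sets. Cdk1, the kinase that drives mitotic entry, measured 6504 with Nell-1 and 5232 with PBS (log2 ratio 0.31), and Ccnb2, encoding cyclin B2, 2938 and 2440 (0.27). Ccna2, encoding cyclin A2, had 2523 with Nell-1 and 2179 with PBS (0.21) on the brightest probe set. Its other probe set gave 1699 with Nell-1 and 1054 with PBS (0.69), which is past 1.5-fold. The phosphatases that activate Cdk1 lay on opposite sides of 0. Cdc25c had 601 with Nell-1 and 459 with PBS (0.39), whereas Cdc25b had 871 with Nell-1 and 1042 with PBS (-0.26), the lowest ratio of the list. Cdc25b was read on its only probe set, and its ratio was within 1 robust SD at that signal (0.28). Foxm1, a transcription factor that activates many G2 and M genes, was at 581 with Nell-1 and 632 with PBS (-0.12), with -0.22 and 0.10 on its next 2 probe sets.

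Plk1, Aurka and the genes of anaphase onset were close to 0 on their brightest probe sets. Plk1, which acts in entry, spindle assembly and cytokinesis, was level at 1432 with Nell-1 and 1431 with PBS, and Aurka, the centrosomal Aurora kinase, had 1820 and 1663 (0.13). Plk4, which controls centriole duplication, was higher at 496 with Nell-1 and 375 with PBS (0.40), and all 3 of its probe sets were above 0. Cdc20, an activator of the anaphase-promoting complex, had 11157 with Nell-1 and 10282 with PBS (0.12). Pttg1, encoding securin, had 11651 with Nell-1 and 10896 with PBS (0.10) on its brightest probe set, but 153 and 83.3 (0.88) on its dimmest, the only one not of a type shared between transcripts. Espl1, encoding separase, had 652 with Nell-1 and 602 with PBS (0.12). The general marker of cycling cells, Mki67, was near level as well (388 with Nell-1, 373 with PBS, 0.05). Top2a, the topoisomerase that untangles DNA, had 2883 with Nell-1 and 2098 with PBS (0.46), and 0.42 on the next probe set.

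**Figure D3:**
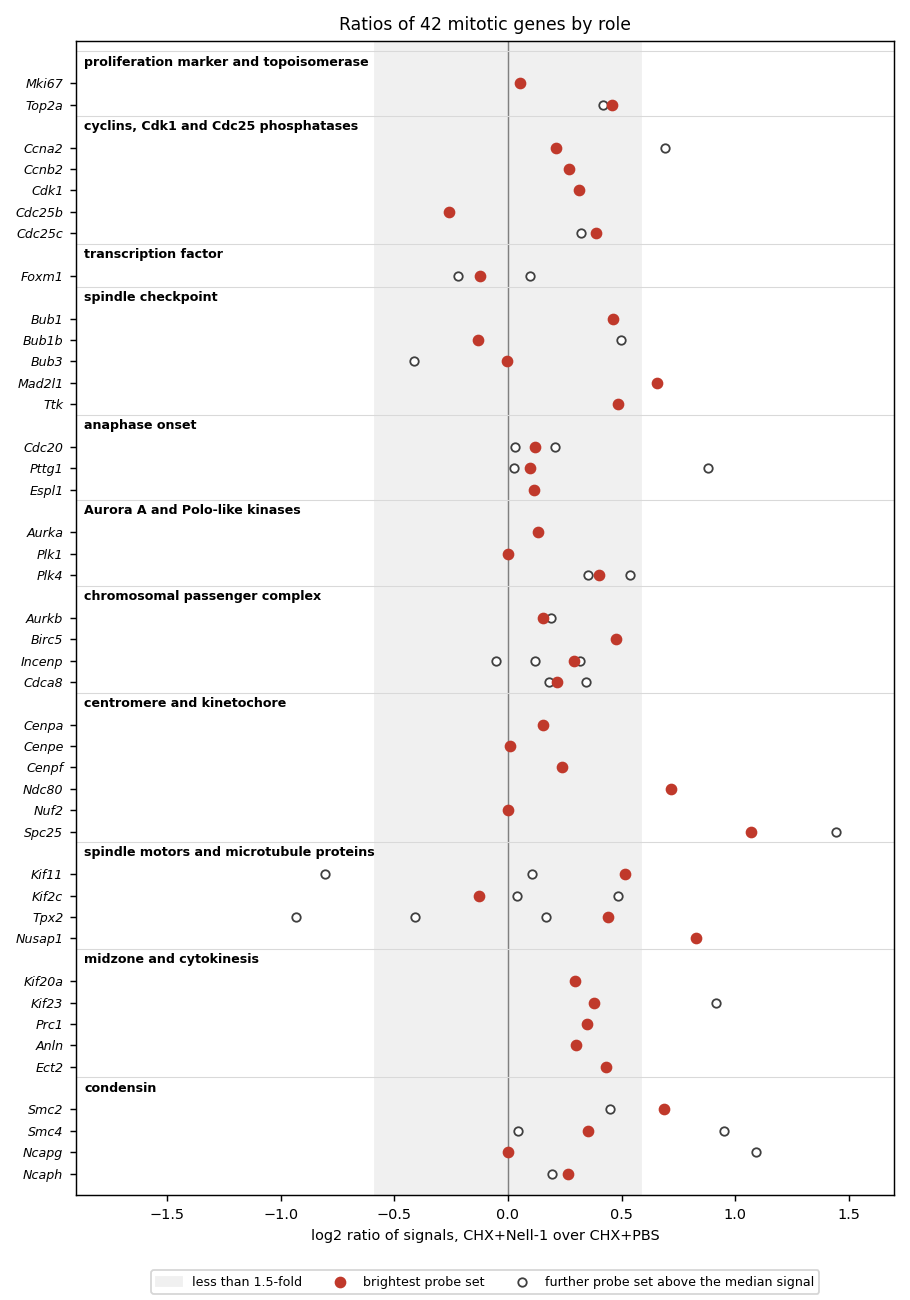
Log2 ratio of CHX+Nell-1 over CHX+PBS for each of the 42 mitotic genes, grouped by role. Red points are the brightest probe set, open points further probe sets above the median signal, and the grey band covers ratios under 1.5-fold. On their brightest probe sets the midzone and cytokinesis genes lie together from 0.30 to 0.43, with a further one of Kif23 at 0.92. Kif11, Tpx2 and Ncapg are among the genes with probe sets far apart, as are Smc4, Pttg1 and Bub1b.

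Further probe sets annotated to the same genes gave a comparison within each RNA sample, though not between cultures. Their positions in the transcripts were not examined, and some are of a type shared between transcripts, so they may not be independent. In 22 of the 42 genes at least 2 probe sets lay above the median signal. The 2 brightest were both above 0 in 17 of the 22, both below in 2 and opposite in 3. Among 5195 genes of the series with such a pair, 33.6% had both above 0 and 68.6% had the same sign. Counting every probe set above the median signal and not only the 2 brightest, 14 of the 22 had all above 0. The share of all genes for this stricter count was not taken. The 34 further probe sets of mitotic genes above the median signal had a median log2 ratio of 0.20. Of these 34, 28 were above 0, 6 at least 1.5-fold higher and 2 at least 1.5-fold lower. The 22 below the median signal, where ratios are unstable, had a median of -0.04 with 11 above 0. Shares over all further or dim probe sets of the series were not taken, so these counts have no background. In the pairs, the second brightest probe set had a median of 0.32 in the 22 genes and -0.01 in the 5195. Of the 5 genes past 1.5-fold, Mad2l1 and Ndc80 had no further probe set, and Spc25 was the only one whose second brightest also passed it.

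Motif content and gene span were set beside the ratios within the list. The 24 measured genes with TTTGAA in the window had a median log2 ratio of 0.25, and the 10 without it 0.33. Across the 42 genes the ratio and the logarithm of the gene's span in the genome had a Pearson r of 0.13 and a Spearman rho of 0.23, as a description of genes that share both arrays. The ratio and the logarithm of the mean signal had an r of -0.03 and a rho of -0.04.

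Further mitotic genes, listed by function and not by value, though with earlier results of these arrays known, also lay on the high side. Of 100 measured, 98 were above the median signal, and their median log2 ratio was 0.23. Of the 98, 70 were above 0, against 45.8% of the 11600 genes. At least 1.5-fold higher were 12 of the 98, against 4.56%, and 1 was at least 1.5-fold lower, against 7.53%. The other 2, the kinesins Kif14 (18.1 with Nell-1, 4.49 with PBS) and Kif15 (12.9 with Nell-1, 58.1 with PBS), were below the median signal. The highest above the median signal were Arhgap11a (850 with Nell-1, 449 with PBS), encoding a GTPase-activating protein for RhoA, and Aspm (528 with Nell-1, 291 with PBS), a spindle pole protein. Shcbp1 (782 with Nell-1, 443 with PBS) and Cenpq (1093 with Nell-1, 622 with PBS), a subunit of the inner kinetochore, came next. The lowest were Ska3 (142 with Nell-1, 217 with PBS), an outer kinetochore protein, Anapc2 (2784 with Nell-1, 3961 with PBS) and Anapc10 (3060 with Nell-1, 4015 with PBS), both subunits of the anaphase-promoting complex, and Cenpb (481 with Nell-1, 610 with PBS), which binds centromeric DNA. By role, counted over all 100, 11 of 12 further spindle checkpoint genes and 19 of 25 further centromere and kinetochore genes were above 0. For further spindle motors and microtubule proteins the count was 9 of 16, with the dim Kif14 above 0 and the dim Kif15 below. The count was 3 of 5 for further midzone and cytokinesis genes, whose median was 0.0076. Of condensin and cohesin genes 8 of 10 were above 0, and of genes of mitotic entry and other functions 15 of 19. Genes of anaphase onset, mostly subunits of the anaphase-promoting complex, had 6 of 13 above 0 and a median of -0.02.

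Genes of DNA replication and the G1/S transition showed a median log2 ratio of 0.18, with 38 of 44 measured above 0, against 45.8% of the 11600 genes. At least 1.5-fold higher were 4, against 4.56%, and none was at least 1.5-fold lower, against 7.53%. On the second brightest probe set, held by 32 of these genes, the median was 0.0064, while the 30 listed mitotic genes with such a probe set had 0.32. These probe sets were taken at any signal, including some mitotic ones below the median signal, where ratios are unstable. With the mean over probe sets above the median signal, the medians were 0.15 for the G1/S genes and 0.28 for the mitotic genes. The highest were Gins1 (695 with Nell-1, 377 with PBS) and Pola1 (436 with Nell-1, 250 with PBS), parts of the replication machinery, Gmnn (2492 with Nell-1, 1514 with PBS), an inhibitor of origin licensing, and Orc6 (1770 with Nell-1, 1142 with PBS), of the origin recognition complex. The lowest were Mcm2 (3774 with Nell-1, 4127 with PBS), of the replicative helicase, the DNA polymerase delta subunits Pold1 (980 with Nell-1, 1037 with PBS) and Pold2 (3401 with Nell-1, 3527 with PBS), and Tyms (189 with Nell-1, 197 with PBS), encoding thymidylate synthase. The difference between the mitotic and the G1/S genes was not tested.

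**Figure D4:**
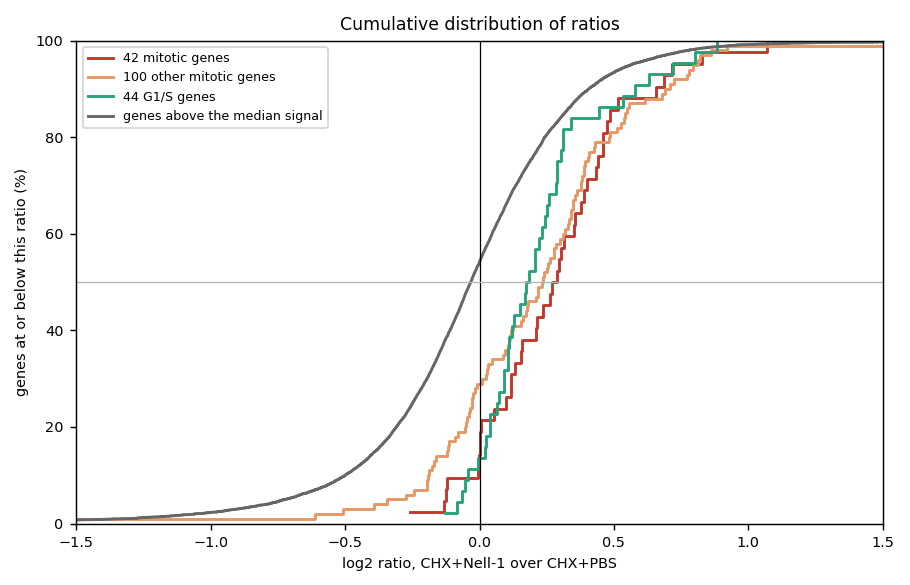
Cumulative share of genes (vertical axis, percent) at or below each log2 ratio of CHX+Nell-1 over CHX+PBS (horizontal axis) for the 42 mitotic genes, 100 other mitotic genes, 44 G1/S genes and the 11600 genes above the median signal. At 50% the curves cross at 0.28, 0.23, 0.18 and -0.03 in that order.

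Array-wide measures were as follows. The deposited signals had the same 2% trimmed mean on both arrays, and 9 housekeeping genes had a median log2 ratio of -0.05, from -0.24 to 0.58. The 24 poly-A spike-in probe sets, for bacterial RNAs added before labelling, were all lower with Nell-1, with a median of -0.49, and the 18 hybridisation spike-in probe sets had -0.18. The part of these differences in the mitotic ratios was not tested. RNA integrity, read as the ratio of 3' to 5' probe sets, was 1.28 with Nell-1 and 1.32 with PBS for Actb, and 0.858 with Nell-1 and 0.848 with PBS for Gapdh. Of 12 chondrogenic markers 9 were above the median signal, among them Sox9 (2577 with Nell-1, 3375 with PBS) and Col2a1 (1206 with Nell-1, 909 with PBS), while Comp, Matn1 and Hapln1 were below it. Of 14 markers of muscle, fat, endothelium, blood and epithelium, 5 were above the median signal. These were Pparg (608 with Nell-1, 598 with PBS) and Fabp4 (62.9 with Nell-1, 77.6 with PBS) of fat, Epcam (370 with Nell-1, 466 with PBS) of epithelium, Des (91.7 with Nell-1, 224 with PBS) of muscle and Cd68 (90.0 with Nell-1, 68.0 with PBS) of blood. The other 9 were below it, including all 3 of endothelium, and the part of other cell types in the mitotic ratios was not tested.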

How the data were processed

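RNA from 2 ATDC5 samples was hybridised to Affymetrix mouse arrays, 1 per group. The deposited values are intensities, linear MAS5 signals scaled per array by the authors. The submitters' processing notes name Affymetrix Expression Console and MAS5, with versions not given in the sources used here. Of 45037 non-control probe sets, 34945 had 1 gene symbol in the platform annotation. A gene was represented by its brightest such probe set. From these the log2 ratio of CHX+Nell-1 over CHX+PBS was computed with no constant added (Python 3.11.15, pandas 2.3.3, statsmodels 0.14.6). Genes above the median mean signal of 64.3 served as background. No test was run, since each group has 1 array, and the number of arrays limits the precision. The members and lists were chosen with earlier results of these data known, and the lists of further mitotic and G1/S genes were filled by function. All measured members are named, with up to 4 genes per direction above the median signal from each further list. Kif14, Kif15 and Spc24 were named after their values were seen. Promoter windows and symbols came from RefSeq tables of GRCm38.p6, which supplied 3 updated symbols. The code was tested on simulated arrays. Alternatives were other scalings, an added or floor value of 17.9, other rules for the probe set, and a 2-fold threshold.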

Additional observations from a re-analysis of the deposited data

How the results depend on the processing

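The median log2 ratio of the mitotic genes was above 0 in all 13 alternatives, from 0.27 to 0.77. The floor value and the restriction to genes above the median signal could not change it, because all 42 genes lay above both limits. Between 33 and 42 genes were above 0 in the settings that kept all 42. The count of 42 came only from centring on the poly-A spike-ins, which raised every gene, and the next highest was 38. On the second brightest probe set 26 of 30 were above 0, and on probe sets of an unshared type 30 of 33. In these last 2 settings the median of all genes above the median signal was -0.02 and -0.03. The share of all genes above 0 was not taken for each setting. The highest values came from centring on the poly-A spike-ins, chosen after seeing the data, which moved the median of all genes above the median signal to 0.46, against -0.03 as deposited, by construction. It gave 0.77 for the mitotic genes, 0.73 for the wider mitotic list and 0.67 for the G1/S list. In this setting 32 mitotic genes were at least 1.5-fold and 41 at least 25% higher. The median of all genes above the median signal was then itself past the 25% step. The share of all genes past either step was not taken, so these counts say nothing particular to the mitotic genes. The mitotic genes exceeded the genes above the median signal by 0.29 to 0.34 in every setting. Scalings that shift every gene by the same amount cannot change this difference, and the floor did not. It was 0.31 in all of these, as with the deposited signals, so they are no check of it. With a 2-fold threshold 1 gene was higher, Spc25. Averaging all probe sets put 3 genes at least 1.5-fold lower and 4 lower by the smaller factor of 25%, and 3 of the 5 genes past 1.5-fold stayed past it, or 4 when probe sets below the median signal were left out. On the second brightest probe set, held by 30 genes, these counts were 1 and 2, of the 5 genes past 1.5-fold 3 had such a probe set and 1, Spc25, passed on it, and the G1/S median was 0.0064. Probe sets of an unshared type, held by 33 genes, gave 1 gene lower by the factor of 25%. The remaining scalings kept all 5 genes past 1.5-fold. Leaving out a replicate was not possible with 1 array per group. No paired analysis was possible because each group holds a single array.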
